A study of Mus musculus with 54 samples.

Results

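Glycolysis splits glucose into pyruvate, and hypoxia-inducible factor 1 (HIF-1) is the transcription factor best known for raising it. The 10 genes described here are Hif1a, which encodes the regulated subunit of HIF-1, and 9 genes of glucose uptake and glycolysis, namely Slc2a1, Hk1, Hk2, Hk3, Pfkfb3, Pfkl, Pgk1, Pkm and Ldha. They were chosen by symbol, with earlier results of these data known. The rows came from bulk RNA-seq count tables of sorted mouse brain macrophages, with 33280 gene rows. All 10 were found and all 10 had enough counts to be tested in every comparison.

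The tables held 54 libraries in 18 groups of 3. Microglia (MG, sorted as CD206-) and subdural CNS-associated macrophages (sdCAMs, the CD206+ macrophages of the leptomeninges and perivascular spaces) came from brains without choroid plexuses of wild type (WT), Ccr2 KO (Ccr2-/- below) and Ccr2CreERT2 R26tdT reporter mice. The series asked how these cells respond to lipopolysaccharide (LPS), a bacterial endotoxin, after depletion by BLZ945, an inhibitor of the CSF1 receptor, and renewal. LPS or PBS was given 8 weeks after treatment, and cells were sorted 12 h later.

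WT and Ccr2-/- mice formed 3 groups for each cell type, untreated mice given PBS, vehicle-treated mice (CTL) given LPS, and BLZ945-treated mice given LPS. The Ccr2-/- mice carry a null allele of Ccr2 in every cell, and Ccr2 is the chemokine receptor that monocytes use to leave the bone marrow. Reporter mice were labelled Ccr2CreERT2/CreERT2:R26tdT/tdT, all had BLZ945 and then tamoxifen, and were given LPS or PBS. In them tamoxifen turns on tdTomato (tdT) in cells that express Ccr2 at that time, so that tdT+ sdCAMs descend from such cells, while a tdT- cell may also be one in which recombination failed. Both Ccr2 alleles of these mice carry the CreERT2 insertion according to that label. Without LPS, WT and Ccr2-/- mice had no vehicle, so the step from untreated to CTL with LPS holds the vehicle and LPS together, and the effects cannot be told apart. Ages are not given in the labels. Each Ccr2-/- library with LPS has MG in its title where its cell type field says sdCAM, or the reverse, and the field was used, which the markers Mrc1 and Tmem119 below bear out. The labels of 6 WT sdCAM libraries, the 3 CTL, 2 untreated and 1 BLZ945, carry the mark IEG_correction, which they do not explain. WT and Ccr2-/- libraries carry batch label 1 and reporter libraries batch label 2, so genotype and batch cannot be told apart for reporter mice. The paper reports a batch correction over the WT and Ccr2-/- data, but the labels do not divide these libraries into batches. No such correction was made here, so batch may also differ between WT and Ccr2-/- libraries.

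Glucose enters cells through transporters such as GLUT1, the product of Slc2a1, and is trapped by hexokinases as glucose 6-phosphate. Phosphofructokinase commits the sugar to glycolysis, and the enzyme encoded by Pfkfb3 makes fructose 2,6-bisphosphate, the strongest activator of phosphofructokinase. Later steps yield ATP and pyruvate, which lactate dehydrogenase turns into lactate. Macrophages that meet LPS are known to take up more glucose and to make more lactate, and HIF-1 is stabilised in them even when oxygen is present. HIF-1 binds DNA at hypoxia response elements whose core reads ACGTG or GCGTG.

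Promoters are shown for some of the members that rose together after LPS, with Hk3, which fell in microglia, for contrast. A promoter is here the window from 250 bases before to 50 bases after a RefSeq start site on GRCm38.p6, printed 5′ to 3′ on the strand of the gene. Capitals mark each ACGTG and each GCGTG on either strand, so that a site on the other strand reads CACGT or CACGC.
Pfkfb3, chr2:11502041-11502340, minus strand: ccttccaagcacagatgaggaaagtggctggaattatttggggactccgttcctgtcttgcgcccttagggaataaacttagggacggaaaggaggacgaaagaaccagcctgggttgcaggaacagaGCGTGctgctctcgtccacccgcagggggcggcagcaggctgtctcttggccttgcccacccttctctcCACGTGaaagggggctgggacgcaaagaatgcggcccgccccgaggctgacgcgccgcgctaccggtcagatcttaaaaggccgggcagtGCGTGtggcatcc
Slc2a1, chr4:119108495-119108794, plus strand: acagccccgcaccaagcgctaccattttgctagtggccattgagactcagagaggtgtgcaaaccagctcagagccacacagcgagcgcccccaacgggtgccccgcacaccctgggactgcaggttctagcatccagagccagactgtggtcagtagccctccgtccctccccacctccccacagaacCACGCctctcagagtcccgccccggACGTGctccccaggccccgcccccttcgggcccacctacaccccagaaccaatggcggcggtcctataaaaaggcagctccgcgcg
Pgk1, chrX:106186850-106187149, plus strand: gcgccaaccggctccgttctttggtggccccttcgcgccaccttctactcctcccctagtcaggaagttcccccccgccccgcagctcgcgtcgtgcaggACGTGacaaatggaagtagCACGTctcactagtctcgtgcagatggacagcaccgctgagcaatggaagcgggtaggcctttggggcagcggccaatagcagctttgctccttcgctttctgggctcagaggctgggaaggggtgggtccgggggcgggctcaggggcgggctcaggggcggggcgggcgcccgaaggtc
Ldha, chr7:46845554-46845853, plus strand: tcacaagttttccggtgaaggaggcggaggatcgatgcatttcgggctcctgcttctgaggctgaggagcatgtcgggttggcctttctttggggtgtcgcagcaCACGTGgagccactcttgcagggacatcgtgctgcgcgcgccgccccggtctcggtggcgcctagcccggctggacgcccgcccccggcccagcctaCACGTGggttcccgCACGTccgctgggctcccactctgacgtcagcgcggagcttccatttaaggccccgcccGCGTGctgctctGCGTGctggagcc
Hk3, chr13:55021336-55021635, minus strand: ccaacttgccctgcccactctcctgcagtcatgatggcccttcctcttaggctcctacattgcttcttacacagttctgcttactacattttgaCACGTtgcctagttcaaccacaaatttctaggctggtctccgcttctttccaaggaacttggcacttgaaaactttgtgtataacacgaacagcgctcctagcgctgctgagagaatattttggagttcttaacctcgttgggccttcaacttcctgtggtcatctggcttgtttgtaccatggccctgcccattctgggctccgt

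The 10 members had 14 such windows. ACGTG was found in 10 of the 14 (71.4%), against 19.6% of 32851 windows of all genes. GCGTG was found in 6 (42.9%), against 32.4% of all windows. At least 1 of these cores stood in 12 windows (85.7%, against 43.8%), which belonged to all 10 members. The Ldha window printed above held 7 sites and the Pfkfb3 window held 4. A CACGTG is read on both strands and was counted on each, which holds for 2 stretches in the Ldha window and 1 in the Pfkfb3 window. Both genes have another window, not printed, with 2 sites for Ldha (no ACGTG) and 1 site for Pfkfb3. Hk1 and Pkm have 2 windows each, and in each gene 1 of them holds no core. Hk3 and Hk1, which fell with LPS in WT and Ccr2-/- MG, carried a core as well. These are matches of letters in a window and no binding was measured. The windows of all genes were not matched to the members for base composition. The members were chosen as genes of glycolysis and HIF-1, so these shares do not test the set.

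Library totals ran from 1705930 to 7699790 counts for WT sdCAMs, from 2060240 to 9850283 for reporter sdCAMs, and from 7497764 to 11330781 for MG and Ccr2-/- sdCAMs. Levels below are CPM (reads of a gene relative to all counted reads) scaled by the TMM method over all 54 libraries, which sets the bulk of genes equal between libraries. Ccr2 itself lay at 17 to 51 CPM in untreated WT sdCAMs and at 2.33 to 5.2 CPM in untreated Ccr2-/- sdCAMs, but after LPS it was at 0 to 5.77 CPM in WT and 1.73 to 5.48 CPM in Ccr2-/- sdCAMs, so that this check separates WT from Ccr2-/- only without LPS. In reporter sdCAMs with PBS, Ccr2 was at 142 to 194 CPM in tdT- and 230 to 281 CPM in tdT+ cells, so tdT- cells were not without it. Mrc1, which encodes CD206, was at 289.1 CPM or more in all sdCAM groups and at 12.62 CPM or less in all MG groups. The microglial marker Tmem119 was present in sdCAMs too, at 65.79 to 966.7 CPM, against 701.6 to 12210 CPM in MG. A single transcript, Saa3, took 14.5% to 35.8% of all counts in 7 sdCAM libraries after LPS, all 3 CTL and 1 BLZ945 library of WT mice and the 3 tdT- libraries. TMM factors of those 7 libraries were 0.344 to 0.7, so their member levels depend on the scaling. In bulk samples, fewer cells of a type and less RNA per cell cannot be told apart.

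Before LPS, the members were expressed at moderate and unequal levels. Per kilobase of exon, the highest level in untreated WT MG was 30.9 CPM per kb for both Hk3 and Hif1a, followed by Ldha (28.5) and Hk2 (23.8), and the ranges of neighbours in this order overlapped down to Hk2. Pfkl (19.3), Pfkfb3 (18.9), Pkm (17.5) and Slc2a1 (16.7) came next with overlapping ranges, and Hk1 (5.16) and Pgk1 (5.05) were lowest. In untreated Ccr2-/- sdCAMs the order began with Ldha (42.3) and Hk3 (35.8) and ended with Pfkfb3 at 3.94 CPM per kb. Pgk1 levels are the least certain, since 53.9% of its 50-base words also occur in other genes and the handling of shared reads is not stated. The same share was 25.8% for Pkm, 9.26% for Ldha and at most 5.74% for the other members.

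Untreated sdCAMs had less of several members than MG. All tests between groups were edgeR quasi-likelihood tests with Benjamini-Hochberg adjustment over all genes tested, and a member passed at an adjusted p under 0.05. Groups said below not to overlap are described only, since the share of all genes with such separation was not counted. In Ccr2-/- mice 5 of 10 members passed, all lower in sdCAMs, where 22.4% of all genes passed in either direction. Pfkfb3 was at 109.6, 123.3 and 141.9 CPM in the MG libraries and at 23.5, 25.91 and 39.86 CPM in the sdCAM libraries (log2 difference -2.07 ± 0.33 (SE), adjusted p = 0.000107). For this gene and for Slc2a1 (log2 difference -1.60 ± 0.33) and Pfkl (-1.27 ± 0.21), no sdCAM library reached the lowest MG library. Hk2 (-0.79 ± 0.19) and Hif1a (-0.83 ± 0.29, adjusted p = 0.046) were lower by smaller amounts, and the Hif1a call was lost without any 1 of the 6 libraries (adjusted p = 0.0773 to 0.122). With the mouse as a block, Pkm passed too, lower in sdCAMs (-0.42, adjusted p = 0.0366).

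The WT and reporter mice gave fewer calls between untreated cell types. In WT mice 2 members passed, where 17.4% of all genes did: Hk2 was higher in sdCAMs (log2 difference 4.62 ± 0.83, adjusted p = 0.00121) and Pfkl lower (-1.06 ± 0.33, adjusted p = 0.0344). With the mouse as a block, Hk2 alone passed. Without sdCAM mouse 15 the count was 4, with Pfkfb3 (-1.82) and Ldha (-1.67) lower in sdCAMs, and without sdCAM mouse 9 or any 1 of the 3 MG libraries it was 1. In reporter mice given PBS, 3 members passed, all lower in sdCAMs (all genes 11.2%), namely Pfkl (-1.61 ± 0.35), Pfkfb3 (-1.46 ± 0.37) and Slc2a1 (-1.45 ± 0.42). None of the 3 passed without the MG library of mouse 175 (adjusted p = 0.0682 to 0.133), and Slc2a1 was also lost with the mouse as a block (-1.41, adjusted p = 0.0587) and without any 1 of 5 others (adjusted p = 0.069 to 0.0782). In the MG library of mouse 175 Hif1a had 8 counts (0.826 CPM, against 157.9 and 214.0 CPM in the other two). This library also held the fewest genes with any count, 32.5% of all rows.

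With LPS, 7 or 8 of the 10 members passed in 4 of 6 populations, and Pfkfb3 had a log2 change of at least 2.27 in all 6. The members were chosen with earlier results of these data known, so the shares of all genes given below do not test the set. Of 10 members, 7 passed in WT MG (5 higher, 2 lower), where 30.9% of all genes passed. In Ccr2-/- MG 8 passed (6 higher, 2 lower), against 34.9% of all genes. In Ccr2-/- sdCAMs 7 passed, all higher, against 28.8% of all genes in either direction and 15.8% among higher genes. In WT sdCAMs 1 passed, against 6.32% of all genes. In reporter sdCAMs, taking the mean of the tdT+ and tdT- changes, 7 passed (5 higher, 2 lower), against 33.5%. The tdT+ and tdT- libraries of this mean came from the same mice and were treated as independent. Their deviations from group means correlated at 0.078 to 0.211 within a mouse. The effect of this pairing on the 7 calls was not tested. In reporter MG none passed, against 1.08%, and 2 members had an unadjusted p under 0.05, against 13.9% of all genes. DESeq2 called 2 members there.

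The median log2 change of the 10 members was 1.02 in WT MG, 0.90 in Ccr2-/- MG, 2.33 in Ccr2-/- sdCAMs, 0.89 in WT sdCAMs, 0.75 in reporter MG and 0.72 in reporter sdCAMs. Over all genes tested, the median lay between -0.08 and 0.07 in these comparisons. The spread between replicates also differed, with a coefficient of variation common to all genes of 0.257 to 0.264 for MG of WT and Ccr2-/- mice, 0.453 for sdCAMs of the latter, and 0.7 to 0.81 for the remaining 3 populations. A member that did not pass in the populations with the wider spread is therefore not shown to be unchanged.

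**Figure D1:**
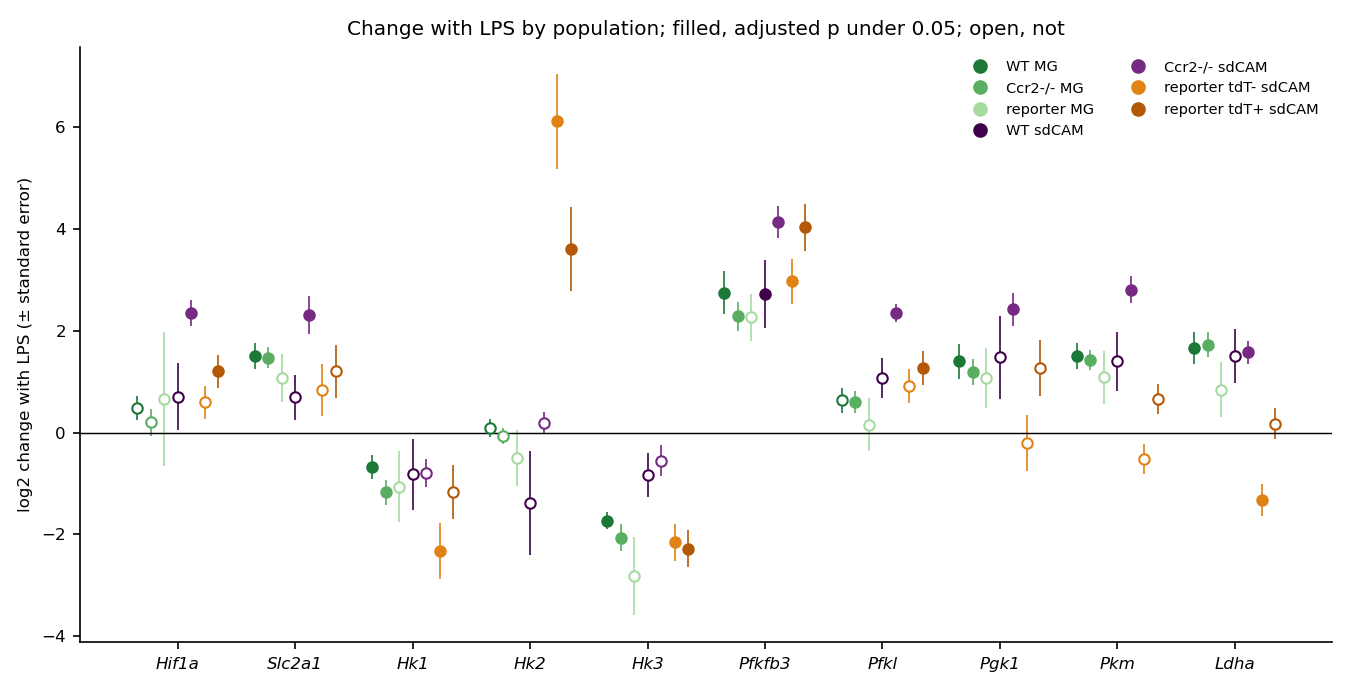
Log2 change with LPS of each member in 7 populations (y axis, ± standard error from the edgeR fit), with filled points for adjusted p under 0.05 and open points otherwise. Pfkfb3 lies at 2.27 or above in every population, Hk3 and Hk1 lie below 0 in every population, and Hk2 lies near 0 in WT and Ccr2-/- MG and at 3.61 and 6.12 in the reporter sdCAM populations.

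Hif1a, the regulator, rose in sdCAMs of Ccr2-/- mice and in tdT+ sdCAMs. In Ccr2-/- sdCAMs it went from 116.2, 116.6 and 123.3 CPM to 549.1, 603.1 and 675.6 CPM with LPS (log2 change 2.36 ± 0.26, adjusted p = 2.05e-05), with no overlap between the groups. In tdT+ sdCAMs it went from 108.2, 141.1 and 142.7 CPM to 259.9, 313.4 and 326.7 CPM (1.20 ± 0.32, adjusted p = 0.0205). That call was lost without any 1 of 4 libraries (LPS mouse 7, PBS mice 174, 175 and 177, adjusted p = 0.0546 to 0.103), and with the disputed reporter columns exchanged (0.85, adjusted p = 0.222).

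In microglia Hif1a did not pass. In WT MG the levels were 165.6, 182.2 and 198.1 CPM before and 162.0, 232.6 and 368.7 CPM after LPS, with overlapping groups (0.49 ± 0.24, adjusted p = 0.144). Without the CTL LPS library of mouse 4 the change was 0.73 and passed (adjusted p = 0.00732). Ccr2-/- MG showed 199.4 to 227.3 CPM before and 224.3 to 249.6 CPM after LPS (0.20 ± 0.26, adjusted p = 0.6). In WT sdCAMs the LPS libraries spread from 46.62 to 293.3 CPM around the untreated range of 96.15 to 118.8 CPM. HIF-1α is controlled mainly through the stability of the protein, which these counts do not measure.

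Slc2a1, the glucose transporter GLUT1, rose in microglia of both genotypes and in Ccr2-/- sdCAMs. WT MG went from 54.3, 55.37 and 66.3 CPM to 112.2, 137.2 and 248.6 CPM (log2 change 1.50 ± 0.26, adjusted p = 0.0014). Ccr2-/- MG went from 69.09, 73.78 and 95.83 CPM to 180.8, 220.1 and 252.9 CPM (1.47 ± 0.21, adjusted p = 8.57e-05). Ccr2-/- sdCAMs started lower, at 14.54, 17.58 and 47.3 CPM, and reached 122.9, 134.1 and 136.5 CPM (2.31 ± 0.38, adjusted p = 0.000549). None of these pairs of groups overlapped. In WT sdCAMs the levels were 23.61, 28.42 and 34.87 CPM before and 37.29, 43.42 and 47.6 CPM after LPS, which did not pass (0.69 ± 0.44, adjusted p = 0.362). The mean change in reporter sdCAMs passed narrowly (1.02 ± 0.37, adjusted p = 0.0423) and was lost without any 1 of 8 of the 12 libraries, most of all tdT- LPS mouse 1 (0.60, adjusted p = 0.172), which at 100.6 CPM stood above the other tdT- LPS libraries (28.19 and 35.12 CPM).

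**Figure D2:**
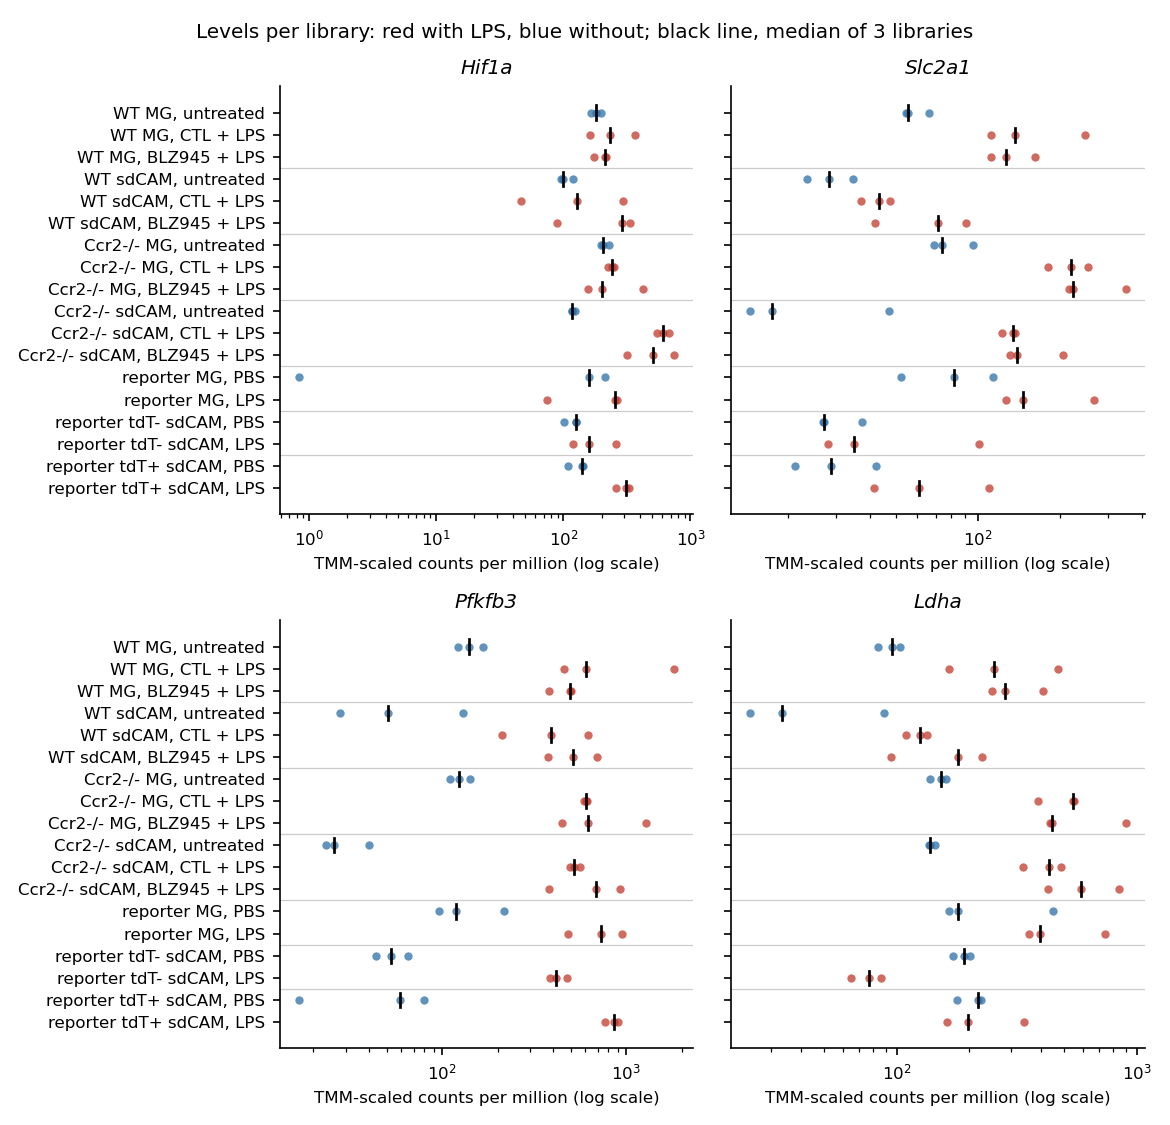
Levels of Hif1a, Slc2a1, Pfkfb3 and Ldha in each of the 54 libraries (x axis, TMM-scaled CPM, log scale), by group, with red points for LPS, blue for untreated or PBS, and a black line at the median of 3. For Pfkfb3 the red points lie at 212.1 CPM or more and the blue points at 215.6 CPM or less, and within each cell type they do not overlap.

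The 3 hexokinases, which share the first step of glycolysis, did not move together. Hk3, an isoform found mainly in myeloid cells, fell in microglia. WT MG went from 109.8, 112.5 and 119.0 CPM to 30.07, 34.4 and 37.99 CPM (log2 change -1.73 ± 0.16, adjusted p = 1.79e-05), and Ccr2-/- MG from 86.17 to 97.69 CPM down to 19.61 to 24.79 CPM (-2.06 ± 0.27, adjusted p = 4.37e-05). Every LPS library of both genotypes was below every untreated one. In reporter sdCAMs Hk3 also fell, from 150.6 to 217.3 CPM after PBS to 20.89 to 48.06 CPM after LPS (mean change -2.22 ± 0.26, adjusted p = 1.37e-05). In Ccr2-/- sdCAMs Hk3 did not pass, with 107.8, 127.3 and 160.0 CPM before and 56.35, 96.44 and 118.0 CPM after LPS, and overlapping groups (-0.55 ± 0.31, adjusted p = 0.215). Reporter MG had the largest estimate with the largest error (-2.82 ± 0.77, adjusted p = 0.126), and DESeq2 called it (-2.74, adjusted p = 0.00498).

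Hk1, the hexokinase of most tissues, was among the lowest members and went the same way. It fell in Ccr2-/- MG, from 37.28, 47.64 and 54.58 CPM to 15.64, 21.94 and 23.48 CPM (-1.17 ± 0.25, adjusted p = 0.00206). The fall in WT MG was smaller, from 37.46, 41.53 and 53.02 CPM to 20.64, 29.21 and 32.69 CPM (-0.67 ± 0.24, adjusted p = 0.0484), and the call was lost without any 1 library other than LPS mouse 4 (adjusted p = 0.0592 to 0.176). In tdT- sdCAMs it went from 32.01, 63.27 and 68.65 CPM to 8.02, 10.22 and 14.78 CPM (-2.32 ± 0.55, adjusted p = 0.00564), which rested on 23 to 46 counts in the LPS libraries. With the pair of disputed reporter columns exchanged (described with the tdT results below), that change was -1.57 and did not pass (adjusted p = 0.133).

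Hk2, the inducible hexokinase and a known HIF-1 target, was highest in WT sdCAMs and in reporter sdCAMs after LPS. Its level did not pass with LPS in WT MG (0.09 ± 0.17), Ccr2-/- MG (-0.07 ± 0.16) or Ccr2-/- sdCAMs (0.19 ± 0.21). The 24 MG libraries held 83.73 to 308.6 CPM and the 9 Ccr2-/- sdCAM libraries 64.39 to 111.6 CPM. In tdT- sdCAMs it rose from 23.93, 37.94 and 59.97 CPM after PBS to 474.9, 3776 and 4243 CPM after LPS (log2 change 6.12 ± 0.93, adjusted p = 0.000183). In tdT+ sdCAMs it rose from 34.13, 62.15 and 104.1 CPM to 189.3, 531.7 and 1722 CPM (3.61 ± 0.83, adjusted p = 0.00932), and without tdT+ LPS mouse 1 the change was 2.43 and no longer passed (adjusted p = 0.0555). In WT sdCAMs Hk2 was already high without LPS, at 404.0, 4626 and 5101 CPM, against 349.6, 893.1 and 2431 CPM in CTL with LPS (-1.38 ± 1.02, adjusted p = 0.433). Untreated mice 9 and 14 (4626 and 5101 CPM) carry the IEG_correction mark and mouse 15 (404.0 CPM) does not, but CTL mouse 4 (349.6 CPM) carries it too. The higher level in sdCAMs than in MG without LPS was seen in WT mice only. The difference was -0.79 in Ccr2-/- mice, which passed, and -1.70 ± 0.61 in reporter mice (adjusted p = 0.083).

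High Hk2 and low library totals occurred in overlapping sets of libraries. The 14 libraries with more Hk2 than any MG library were the 9 WT sdCAM libraries and 5 of the 6 reporter sdCAM libraries with LPS, and their totals were 1705930 to 8751293 counts. All 12 libraries with a total below that of every MG library held 189.3 to 5101 CPM of Hk2, and all 12 were WT sdCAMs or reporter sdCAMs with LPS. In the 6 reporter sdCAM libraries with PBS, Hk2 was 23.93 to 104.1 CPM at totals of 8652557 to 9850283 counts. Among the 9 WT sdCAM libraries, however, the lowest Hk2 levels were found at low totals (349.6 CPM in CTL mouse 4 at 2386672 counts, 404.0 CPM in untreated mouse 15 at 1929070 counts), and mouse 1, with the highest total (7699790 counts), held 2431 CPM. The 18 sdCAM libraries with totals in the MG range held 23.93 to 2431 CPM. The part of library depth or input in these Hk2 levels was not tested. Per kilobase, Hk2 in untreated WT sdCAMs (mean 566 CPM per kb) stood above every other member, of which Hk3 was next at 22.1.

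**Figure D3:**
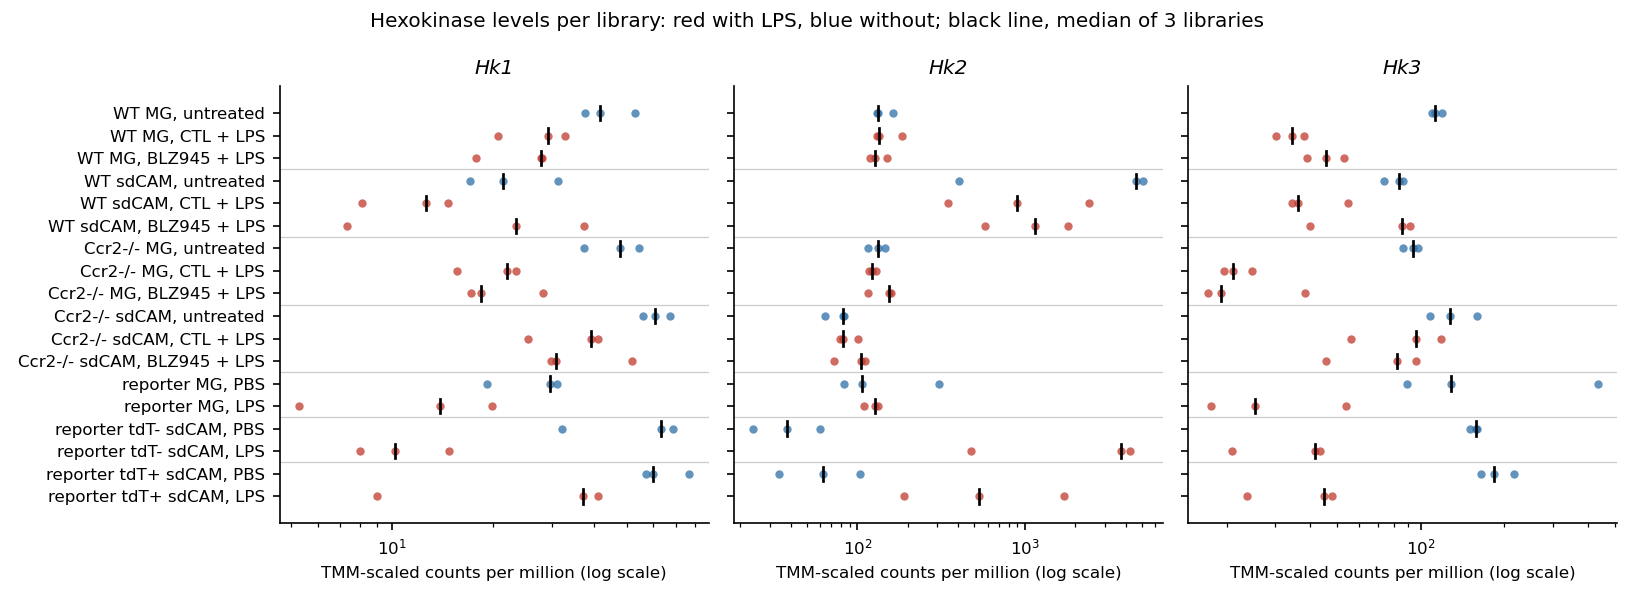
Levels of the hexokinases Hk1, Hk2 and Hk3 in each library (x axis, TMM-scaled CPM, log scale), by group, with red points for LPS, blue for untreated or PBS, and a black line at the median of 3. Hk2 is at 349.6 CPM or more in all 9 WT sdCAM libraries and in 5 of 6 reporter sdCAM libraries with LPS, while Hk3 lies lower with LPS than without it in every MG library of the same genotype.

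Pfkfb3, which makes the activator of phosphofructokinase, passed as higher in every population but reporter MG, where a change of 2.27 did not pass. WT MG went from 121.9, 140.0 and 165.8 CPM to 456.3, 600.5 and 1824 CPM (log2 change 2.75 ± 0.42, adjusted p = 0.000548). Ccr2-/- MG went from 109.6, 123.3 and 141.9 CPM to 588.0, 601.2 and 611.3 CPM (2.29 ± 0.29, adjusted p = 3.4e-05). Across all genotypes, the 9 MG libraries without LPS held 96.44 to 215.6 CPM and the 15 with LPS 380.5 to 1824 CPM, so the libraries with and without LPS did not overlap.

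In Ccr2-/- mice the sdCAMs started with less Pfkfb3 than MG, and after LPS the difference did not pass (-0.18 ± 0.31). Ccr2-/- sdCAMs rose from 23.5, 25.91 and 39.86 CPM to 494.6, 522.3 and 563.0 CPM (4.14 ± 0.32, adjusted p = 1.12e-06). The tdT+ cells rose from 16.58, 58.86 and 79.22 CPM to 769.0, 853.3 and 899.6 CPM (4.03 ± 0.47, adjusted p = 8.47e-05), and the tdT- cells from 43.95, 52.67 and 65.51 CPM to 385.9, 413.9 and 478.3 CPM (2.97 ± 0.45, adjusted p = 0.000161). In these groups too, no LPS library overlapped its PBS or untreated group. The tdT- cells with LPS remained below every reporter MG library with LPS (481.8 to 944.1 CPM).

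Pfkfb3 was the member that passed in WT sdCAMs, from 28.03, 50.69 and 129.0 CPM to 212.1, 389.7 and 621.1 CPM (2.73 ± 0.67, adjusted p = 0.0391). The groups did not overlap, but the call was lost without any 1 of 5 libraries, all except untreated mouse 15 (adjusted p = 0.0503 to 0.147). Scaled by library totals instead of TMM, the change was 1.08 (adjusted p = 0.281), and the median change of all genes in that comparison was then -1.55 instead of -0.08. In reporter MG the change was of similar size (2.27 ± 0.46, adjusted p = 0.0758) and passed without PBS mouse 175 (2.74, adjusted p = 0.0132).

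Pfkl, the liver-type subunit of phosphofructokinase, rose most in Ccr2-/- sdCAMs, from 52.12, 65.63 and 67.9 CPM to 300.1, 302.7 and 347.9 CPM (2.35 ± 0.18, adjusted p = 9.08e-07). The rise in Ccr2-/- MG was 0.60 ± 0.21 (adjusted p = 0.0364), from 125.7 to 165.3 CPM up to 172.1 to 269.3 CPM, and was lost without any 1 of 5 of the 6 libraries (adjusted p = 0.0525 to 0.171). WT MG gave nearly the same value without passing (0.64 ± 0.24, adjusted p = 0.065). In tdT+ sdCAMs Pfkl rose by 1.28 ± 0.34 on the log2 scale (adjusted p = 0.0199), a call lost without any 1 of 5 of the 6 libraries (adjusted p = 0.0513 to 0.0917).

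Pgk1, Pkm and Ldha act in the second stage of glycolysis, in which phosphoglycerate kinase and pyruvate kinase yield ATP and lactate dehydrogenase A renews NAD+. All 3 rose with LPS in WT MG, in Ccr2-/- MG and in Ccr2-/- sdCAMs. Pkm went from 78.88, 89.48 and 94.78 CPM to 172.1, 216.2 and 358.4 CPM in WT MG (log2 change 1.51 ± 0.25, adjusted p = 0.000989). It went from 71.87, 77.97 and 78.06 CPM to 417.4, 512.3 and 669.1 CPM in Ccr2-/- sdCAMs (2.81 ± 0.26, adjusted p = 6.05e-06), and the change in Ccr2-/- MG was 1.42 ± 0.19. Gene counts do not separate the splice forms of Pkm.

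Ldha, a standard HIF-1 target, went from 83.46, 96.06 and 103.5 CPM to 165.3, 255.4 and 468.9 CPM in WT MG (1.66 ± 0.31, adjusted p = 0.00221). The rise was 1.73 ± 0.24 in Ccr2-/- MG and 1.58 ± 0.22 in Ccr2-/- sdCAMs, where it went from 137.1, 137.8 and 145.2 CPM to 337.3, 430.5 and 486.6 CPM. Pgk1 rose by 1.41 ± 0.35 in WT MG, 1.19 ± 0.26 in Ccr2-/- MG and 2.42 ± 0.32 in Ccr2-/- sdCAMs on the log2 scale, at levels of 9.053 to 81.86 CPM in these groups. For all 3 genes in these 3 populations, no LPS library overlapped the untreated group. How many of all genes separate in the same way was not counted.

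In WT sdCAMs the estimates for these genes were of like size but did not pass: 1.48 ± 0.81 for Pgk1, 1.40 ± 0.57 for Pkm and 1.51 ± 0.53 for Ldha (adjusted p = 0.284, 0.156 and 0.106). Under library-total scaling they were -0.23, -0.14 and -0.09. Pgk1 rested on few counts there, 3, 15 and 47 in the untreated libraries and 17, 56 and 83 in the CTL libraries with LPS. With the IEG_correction mark as a covariate, Pgk1 (2.46, adjusted p = 0.0452), Pkm (1.88, adjusted p = 0.0209) and Ldha (2.11, adjusted p = 0.00672) passed. All CTL libraries with LPS carry the mark, so its effect in that fit was estimated from the untreated and BLZ945 libraries only. In reporter sdCAMs none of the 3 genes passed as higher, and Ldha fell in tdT- cells from 172.1, 190.5 and 203.2 CPM to 64.46, 77.13 and 86.27 CPM (-1.32 ± 0.32, adjusted p = 0.00577), with no overlap. With the disputed columns exchanged, the change was -0.70 and did not pass (adjusted p = 0.397). In tdT+ cells Ldha was at 178.5 to 225.0 CPM with PBS and 162.9 to 338.0 CPM with LPS (0.18 ± 0.31, adjusted p = 0.76), and the changes of Pgk1 (1.27 ± 0.55) and Pkm (0.66 ± 0.30) were above 0 without passing. With the columns as named, Pgk1 went from 10.7 to 24.7 CPM up to 30.57 to 54.24 CPM in tdT+ cells. Pkm went from 135.4 to 189.1 CPM up to 228.4 to 290.6 CPM, and neither gene overlapped between PBS and LPS.

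The difference between the LPS responses of sdCAMs and MG was tested directly as an interaction over the 18 libraries of each genotype. In Ccr2-/- mice 5 members passed, all with the larger log2 change in sdCAMs, where 8.14% of all genes passed in either direction and 3.5% in that direction. Hif1a had the largest difference (2.19 ± 0.41, adjusted p = 0.00172), followed by Pfkfb3 (1.89 ± 0.45, adjusted p = 0.0117), Pfkl (1.79 ± 0.29, adjusted p = 0.000464), Hk3 (1.55 ± 0.44, adjusted p = 0.0344) and Pkm (1.42 ± 0.35, adjusted p = 0.0138). For Hk3 the positive difference is a smaller fall in sdCAMs, and its call was lost without any 1 of 10 of the 12 libraries (adjusted p = 0.0578 to 0.0955). Slc2a1 passed without untreated sdCAM mouse 5f (1.55, adjusted p = 0.00674) or without the filter on low counts (0.86, adjusted p = 0.0447), and Pgk1 passed with DESeq2 (1.31, adjusted p = 0.0391) or without that filter (1.27, adjusted p = 0.0132). The Ldha difference was smaller than its error (-0.12 ± 0.37). In WT mice no member passed (all genes 1.32%), none had an unadjusted p under 0.05 (17.8% of all genes), and the differences ran from -1.53 ± 1.01 for Hk2 to 0.83 ± 0.44 for Hk3. DESeq2 likewise called no member in WT mice.

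**Figure D4:**
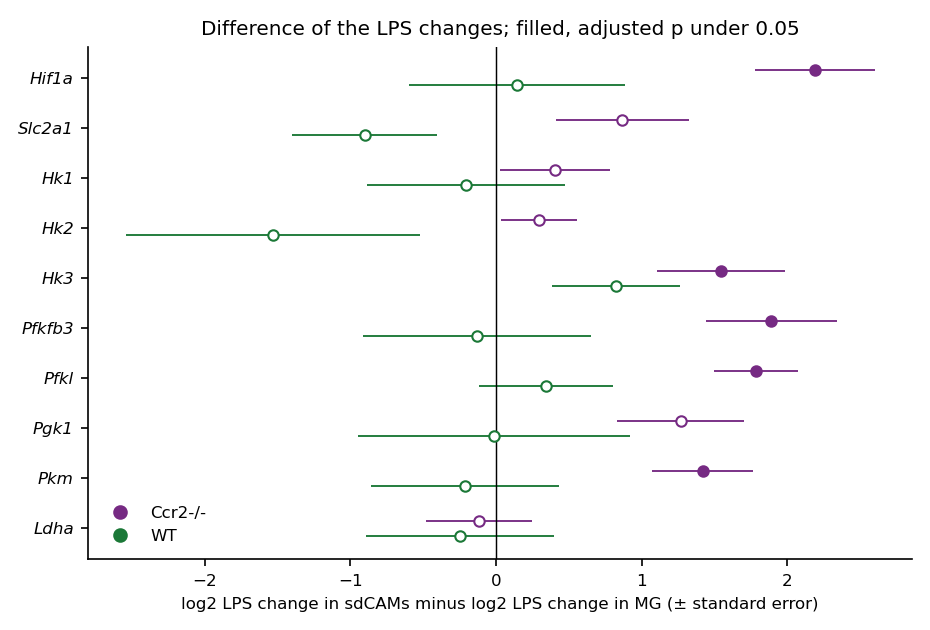
Difference between the log2 LPS changes of sdCAMs and MG for each member (x axis, ± standard error), for Ccr2-/- mice in purple and WT mice in green, with filled points for adjusted p under 0.05. Purple points for Hif1a, Hk3, Pfkfb3, Pfkl and Pkm are filled and lie between 1.42 and 2.19, and all green points are open with longer error bars.

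In Ccr2-/- mice the cell types stood in another order after LPS. Here 4 members were higher in sdCAMs than in MG and none lower (all genes 27%), namely Hk3 (2.05 ± 0.32, adjusted p = 7.56e-05), Hif1a (1.36 ± 0.29, adjusted p = 0.00156), Pkm (1.00 ± 0.25) and Hk1 (0.80 ± 0.27). Hif1a, which had been lower in sdCAMs before LPS, stood at 549.1 to 675.6 CPM in sdCAMs and 224.3 to 249.6 CPM in MG. With the mouse as a block, 8 members passed, of which Slc2a1 (-0.71, adjusted p = 0.0238) and Hk2 (-0.5, adjusted p = 0.0223) were lower in sdCAMs and Pfkl (0.54) and Pgk1 (0.78) were higher in addition to the 4. Hk1 was lost without any 1 of 5 of the 6 libraries (adjusted p = 0.0617 to 0.18). Without MG mouse V4f, Pfkl passed as well (0.65, adjusted p = 0.0485), and without sdCAM mouse V4f, Hk2 passed, lower in sdCAMs (-0.6, adjusted p = 0.0412).

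In WT mice after LPS, 3 members differed between the cell types (all genes 36.7%). Hk2 was higher in sdCAMs (3.09 ± 0.77, adjusted p = 0.00509), and Slc2a1 (-1.89 ± 0.36, adjusted p = 0.00102) and Ldha (-1.21 ± 0.46, adjusted p = 0.0476) were lower. With the mouse as a block Ldha no longer passed (adjusted p = 0.0737), nor without any 1 of 5 of the 6 libraries (adjusted p = 0.0676 to 0.268). Hif1a passed, lower in sdCAMs, without sdCAM mouse 1 (-1.48, adjusted p = 0.0462), and Pfkl without MG mouse 4 (-0.98, adjusted p = 0.0474). Library-total scaling gave 9 calls, and shifted the median difference of all genes from -0.12 to -1.92.

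The LPS responses of the 2 genotypes were compared within each cell type, without a batch correction. In MG no member passed (all genes 0%), none had an unadjusted p under 0.05 (all genes 4.05%), and differences ran from -0.46 ± 0.35 for Hk1 to 0.11 ± 0.43 for Ldha. In sdCAMs no member passed either (all genes 0%). All 10 differences were above 0 there, from 0.21 ± 0.68 for Hk1 to 1.84 ± 0.74 for Hif1a, and 5 members had an unadjusted p under 0.05 (all genes 13.5%), namely Pfkl, Slc2a1, Hif1a, Pkm and Pfkfb3. DESeq2 gave no call among the members in either cell type. The larger Ccr2-/- sdCAM responses above are therefore not shown to differ from those of WT sdCAMs.

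No effect of the earlier depletion on these genes was detectable after LPS. Between BLZ945 and CTL mice, both with LPS, no member passed in WT MG (all genes 0.0763%), WT sdCAMs (0%), Ccr2-/- MG (0.0173%) or Ccr2-/- sdCAMs (0%). Unadjusted p-values under 0.05 were found for 2, 0, 0 and 1 members, against 6.58%, 7.22%, 6.65% and 8.36% of all genes. Differences ran from -1.05 ± 0.39 for Pfkfb3 in WT MG to 1.31 ± 0.79 for Pgk1 in WT sdCAMs. Pfkfb3 in WT MG was at 380.5, 493.9 and 503.1 CPM in BLZ945 mice against 456.3, 600.5 and 1824 CPM in CTL mice, and the groups overlapped. DESeq2 gave no call in these 4 comparisons, and without the filter on low counts edgeR called Pfkfb3 in WT MG (-1.05, adjusted p = 2.17e-07).

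Within reporter mice, tdT+ and tdT- sdCAMs did not differ in any member after PBS (all genes 0.0236%), and no member had an unadjusted p under 0.05 (all genes 4.45%). After LPS 2 members passed, both higher in tdT+ cells, where 10.8% of all genes passed. Ldha was at 162.9, 198.8 and 338.0 CPM in tdT+ and 64.46, 77.13 and 86.27 CPM in tdT- cells (1.62 ± 0.32, adjusted p = 0.00354). Pkm was at 228.4, 243.2 and 290.6 CPM in tdT+ and 84.02, 91.27 and 145.8 CPM in tdT- cells (1.25 ± 0.30, adjusted p = 0.0137). Neither gene overlapped between the populations. With the mouse number, which the populations share, as a block, Hk2 passed too, lower in tdT+ cells (-1.81 ± 0.34, adjusted p = 0.0042) and lower in each of the 3 mice (1722 against 4243 CPM, 189.3 against 474.9 CPM and 531.7 against 3776 CPM). Hk2 also passed without tdT+ mouse 1 (-2.96, adjusted p = 0.0399) or tdT- mouse 5 (-2.29, adjusted p = 0.0414), Hk1, higher in tdT+ cells, without tdT+ mouse 5 (1.87, adjusted p = 0.0239), and Hif1a, higher in tdT+ cells, without tdT- mouse 7 (1.17, adjusted p = 0.0317).

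These differences depend on the names of a pair of columns. In the count table, the columns named tdT- mouse 1 and tdT+ mouse 7 with LPS carry sequencing index numbers that the labels give to each other, and the columns were used as named. With the pair exchanged, the differences were 0.72 for Ldha (adjusted p = 0.89), 0.11 for Pkm (adjusted p = 1) and 0.37 for Hk2 (adjusted p = 0.995), and no member passed, nor with the mouse as a block on the exchanged columns. Saa3 took 14.5% of counts in the column named tdT- mouse 1 and 2.74% in that named tdT+ mouse 7, as in the other libraries of the same names (17.8% and 28.3% for tdT-, 0.68% and 2.14% for tdT+). The choice of scaling also mattered, since library-total scaling gave 8 calls and shifted the median difference of all genes from 0.11 to 1.14.

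**Figure D5:**
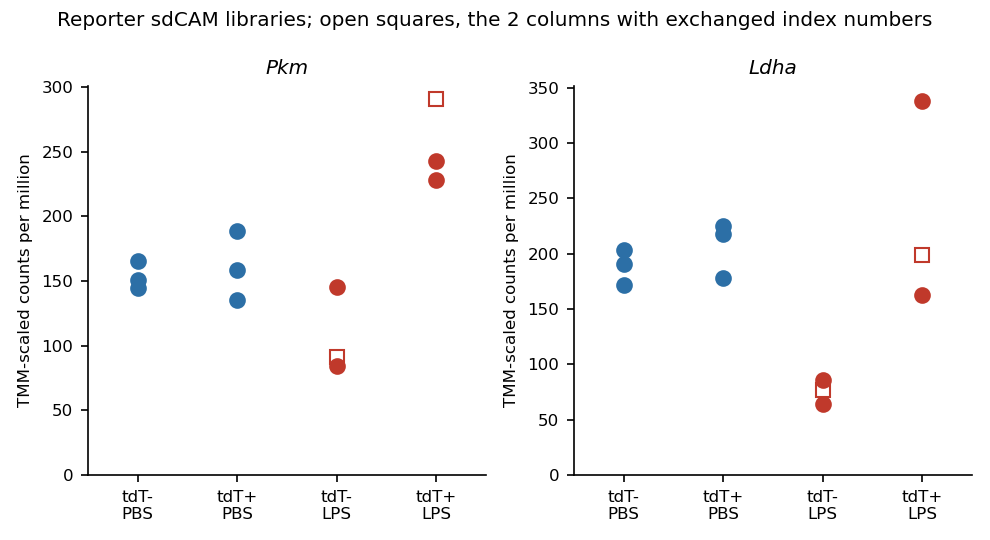
Levels of Pkm and Ldha in the 12 reporter sdCAM libraries (y axis, TMM-scaled CPM from 0), by population and injection, with open squares for the 2 columns whose index numbers are exchanged. With the columns as named, Ldha lies at 64.46 to 86.27 CPM in tdT- cells with LPS and at 162.9 CPM or more in the other 3 groups.

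Within each reporter population the LPS change had its own set of calls. In tdT+ sdCAMs 5 members passed (4 higher, 1 lower, all genes 13.6%), namely Hif1a, Hk2, Pfkfb3 and Pfkl higher and Hk3 lower. In tdT- sdCAMs 5 passed (2 higher, 3 lower, all genes 27.1%), namely Hk2 and Pfkfb3 higher and Hk1, Hk3 and Ldha lower. With the columns exchanged, 3 members passed in each population. Without tdT- LPS mouse 5, Pfkl also passed in tdT- cells, higher (1.13, adjusted p = 0.0127), and so did Pkm, lower (-0.84, adjusted p = 0.0362).

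Other genes of the pathway were counted from lists, to be read against the shares of all genes that passed with LPS, 30.9% in WT MG, 34.9% in Ccr2-/- MG, 28.8% in Ccr2-/- sdCAMs, 6.32% in WT sdCAMs, 1.08% in reporter MG and 33.5% in reporter sdCAMs. Of 23 other glycolysis genes, 20 were tested in MG. In WT MG 9 rose and 3 fell, in Ccr2-/- MG 7 rose and 2 fell, in Ccr2-/- sdCAMs 7 of 18 rose and 2 fell, in WT sdCAMs 1 of 18 rose, in reporter MG none of 18 passed and in reporter sdCAMs 1 of 19 rose and 3 fell. Gapdh, the enzyme before phosphoglycerate kinase, rose in WT sdCAMs (2.08 ± 0.45), Ccr2-/- sdCAMs (1.77 ± 0.19), WT MG (0.95), Ccr2-/- MG (1.05) and reporter sdCAMs (0.65). The transporter gene Slc2a3 (GLUT3) rose in WT MG (3.61 ± 0.26) and Ccr2-/- MG (3.87 ± 0.23) from 4.17 to 8.89 CPM up to 66.05 to 93.42 CPM. In sdCAMs of these genotypes Slc2a3 was at 17.77 CPM or less before LPS and at 13.43 CPM or less in CTL with LPS, and its response was smaller in Ccr2-/- sdCAMs than in MG (-3.91 ± 0.96, adjusted p = 0.0143). Slc2a6 rose in WT MG (3.18 ± 0.27), Ccr2-/- MG (4.48 ± 0.39) and Ccr2-/- sdCAMs (4.96 ± 0.60), while Slc2a8 fell in the same 3 populations (-0.98, -1.15 and -3.07) and in reporter sdCAMs (-2.74).

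The counts of 12 regulators of HIF in MG were close to or below the shares of all genes (30.9% in WT MG, 34.9% in Ccr2-/- MG). Of them, 3 rose and none fell in WT MG (10 tested) and in Ccr2-/- MG (11 tested), and 4 rose and 1 fell in Ccr2-/- sdCAMs (11 tested). In WT sdCAMs and in reporter MG none of 10 passed, and in reporter sdCAMs 2 rose and 3 fell of 10. Hif3a, which encodes a HIF α subunit whose short forms restrain HIF-1, was at 0 to 0.319 CPM in untreated WT MG and 44.03 to 64.67 CPM after LPS, and at 0 to 9.83 CPM in untreated and 88.47 to 126.3 CPM in LPS-treated Ccr2-/- sdCAMs. Rack1, which promotes breakdown of HIF-1α independently of oxygen, rose in WT MG (1.54 ± 0.27), Ccr2-/- MG (1.82 ± 0.17), Ccr2-/- sdCAMs (0.91 ± 0.20) and reporter sdCAMs (1.14 ± 0.20). Vhl, which marks HIF-1α for breakdown, was lower in sdCAMs than in MG without LPS in Ccr2-/- mice (-2.00 ± 0.21), WT mice (-1.33 ± 0.43) and reporter mice (-2.16 ± 0.55), and fell with LPS in reporter sdCAMs (-1.53 ± 0.54).

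The 20 other HIF targets did not move in 1 direction. With LPS 6 of 15 rose and 1 fell in WT MG, 6 of 17 rose and 3 fell in Ccr2-/- MG, 5 of 19 rose and 5 fell in Ccr2-/- sdCAMs, 1 of 10 rose and 1 fell in WT sdCAMs, 1 of 16 rose in reporter MG, and 3 of 18 rose and 3 fell in reporter sdCAMs. Ddit4, an inhibitor of mTORC1 that is also induced by stress hormones, rose in all 6 of these populations, by 5.75 ± 0.41 in WT MG, 4.84 ± 0.37 in Ccr2-/- MG, 4.94 ± 0.53 in reporter MG, 5.77 ± 0.65 in reporter sdCAMs, 5.50 ± 0.69 in Ccr2-/- sdCAMs and 4.80 ± 0.86 in WT sdCAMs. P4ha1, a collagen prolyl hydroxylase, fell in WT MG (-1.11), Ccr2-/- MG (-0.72), WT sdCAMs (-2.03), Ccr2-/- sdCAMs (-1.26) and reporter sdCAMs (-1.52). Vegfa, a well known HIF target that is named here after its values were seen, was at 9.73 CPM or less in every library.

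Genes that handle pyruvate and lactate moved both ways. Of 14 tested, 4 rose and 4 fell in WT MG and likewise in Ccr2-/- MG, 1 rose and 4 fell in Ccr2-/- sdCAMs, and 1 rose and 2 fell in reporter sdCAMs, while 1 of 12 fell in WT sdCAMs and none of 14 passed in reporter MG. Ldhb, the lactate dehydrogenase subunit that favours pyruvate formation, fell in WT MG (-1.11 ± 0.19) and Ccr2-/- MG (-1.25 ± 0.15), where Ldha rose, and in Ccr2-/- sdCAMs (-1.10 ± 0.38, adjusted p = 0.0471). Slc16a3, which encodes the lactate exporter MCT4, rose in WT MG (0.91 ± 0.23) and Ccr2-/- sdCAMs (2.98 ± 0.57), and rose more in the latter than in Ccr2-/- MG (2.40 ± 0.68, adjusted p = 0.0336). Of 8 pentose phosphate genes, 3 rose in WT MG, 5 in Ccr2-/- MG and 3 in Ccr2-/- sdCAMs, and none fell there. None of the 8 passed in WT sdCAMs or reporter MG, and 3 rose and 1 fell in reporter sdCAMs. Pgd rose in WT MG (1.03 ± 0.17), Ccr2-/- MG (1.31 ± 0.12) and Ccr2-/- sdCAMs (0.72 ± 0.16), and H6pd rose in Ccr2-/- sdCAMs (1.83 ± 0.29) and reporter sdCAMs (1.18 ± 0.38).

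LPS itself was visible in every population. Of 8 LPS check genes, 7 of 7 tested rose in WT MG, in Ccr2-/- MG and in reporter sdCAMs, 8 of 8 in Ccr2-/- sdCAMs, 4 of 7 in WT sdCAMs and 3 of 7 in reporter MG. Of the immediate early genes, which can be induced during tissue dissociation, 6 of 13 rose and 1 fell in WT MG, 8 of 13 rose and 1 fell in Ccr2-/- MG, 6 of 13 rose in Ccr2-/- sdCAMs, 1 of 12 rose in WT sdCAMs, 3 of 14 rose and 1 fell in reporter sdCAMs, and none of 12 passed in reporter MG. Their summed level was 912.2 to 1225 CPM in untreated and 2952 to 3403 CPM in LPS-treated Ccr2-/- sdCAMs, in which 7 members rose. Its part in the member changes was not tested.

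Markers of other cells moved with LPS in sdCAMs. The summed level of 6 neutrophil markers went from 0 to 94.2 CPM in untreated WT sdCAMs up to 358.9 to 3290 CPM in CTL with LPS, from at most 0.0986 CPM up to 571.1 to 2233 CPM in tdT- sdCAMs, and from 0.905 to 2.41 CPM up to 61.53 to 96.44 CPM in Ccr2-/- sdCAMs. S100a8 made up nearly all of the sum after LPS, and Ly6g was at 0 in all of these groups. The sum of 5 monocyte markers reached 190.7 CPM at most in sdCAMs with LPS, with Chil3 at 0.108 CPM or less. The summed level of 6 microglial markers was lower with LPS in sdCAMs and in MG, from 25710 to 26880 CPM down to 5374 to 9491 CPM in WT MG and from 4039 to 5632 CPM down to 951.2 to 1271 CPM in Ccr2-/- sdCAMs. In tdT+ sdCAMs with LPS the microglial sum ran from 480.2 to 7993 CPM, wider than the 270.7 to 759.9 CPM of tdT- cells. The highest of these values lay within the range of WT MG in CTL with LPS and below that of reporter MG with LPS (9082 to 11450 CPM). The sum of 8 border macrophage markers was 543.4 to 4058 CPM in tdT+ cells with LPS, against 7901 to 8724 CPM with PBS. In tdT- cells it was 4428 to 7424 CPM with LPS and 9959 to 12490 CPM with PBS. The part of these cell types in the member changes was not tested.

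Across the means of the 18 groups, members of the second stage had the most similar levels. Pearson's r of log2 levels over the 18 groups, a description in which groups share mice and libraries of like depth, was 0.94 between Pgk1 and Pkm, 0.922 between Pkm and Ldha and 0.912 between Slc2a1 and Pfkl. Hk3 and Pfkfb3 ran opposite (-0.81), and Hk2 had no positive r above 0.215 with any other member. Among 8755 genes, the most alike was Slc39a14 for Pfkfb3 (0.972), Pabpc4 for Hk2 (0.971), Eif3b for Ldha (0.965), Sppl2a for Hif1a (0.954), Sla for Slc2a1 (0.951), Timm23 for Pkm (0.942), Siglece for Pgk1 (0.941), Gnpda1 for Hk3 (0.926), Plod1 for Pfkl (0.918) and Cdc42se2 for Hk1 (0.917).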

How the data were processed

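RNA was measured in 54 sorted cell libraries by low-input cDNA amplification and 50-base single reads. The authors aligned reads with STAR 2.7.11a and counted them with featureCounts 2.0.8, per the labels and methods, and deposited raw counts for 33280 gene symbols. Both mm10 and GRCm39 are named with Gencode M36, so no coordinate was taken from the tables. The strand setting and the handling of shared reads are not given in the sources used here, and there were no molecular identifiers. No column was left unmatched. Library totals were 1705930 to 11330781 counts, and precision falls with low totals and with the spread between the 3 mice of a group. The p-values rest on the spread within groups, estimated together over all groups of a fit, including groups outside the comparison. For the mean of the tdT+ and tdT- changes, the p-values take libraries of the same mouse as separate. So do those of the main fits that hold both cell types or both tdT populations.

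Counts were tested with edgeR 4.0.16 (R 4.3.3, limma 3.58.1), using filterByExpr, TMM scaling, quasi-likelihood tests and p-values adjusted by Benjamini-Hochberg across every gene that passed the filter, with a threshold of 0.05. Fits held the 9 libraries of 1 cell type and genotype, the 12 reporter sdCAM or 6 reporter MG libraries, or the 18 libraries of a comparison of cell types or genotypes. The scripts were tested on simulated data with known changes, in which every gene had the spread common to all genes. For LPS in WT MG, 52% of 2-fold and 99% of 4-fold changes were recovered. In Ccr2-/- sdCAMs 1% and 41% were recovered, and in WT sdCAMs 0% and 0%. The simulation changed 200 genes, fewer than passed in the data (664 in WT sdCAMs and 3443 in Ccr2-/- sdCAMs). Its figures therefore do not give the power of the member tests. A member that did not pass in WT sdCAMs may still have changed by such amounts. Alternatives were DESeq2 1.42.0, other scalings, no filter on low counts, a log2 limit of 1, exchanged columns, the IEG_correction mark, each library left out and the mouse as a block. The block was tried for comparisons between cell types or between tdT+ and tdT- cells, and not for the LPS changes of reporter sdCAMs. MG and sdCAMs of 1 number come from the same mouse, which pairs them, and their deviations from group means correlated at -0.127 to 0.33 (median 0.0845, 15 of 36 over 0.1).

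The members and gene lists were chosen with earlier results of these data known. All 10 members are named, and from each list at most 2 genes that passed higher and 2 lower per comparison, with the largest change among those with a mean of at least 10 CPM. Where such a gene passed in further populations, those values are given too. Likeness is Pearson's r of log2(CPM + 1) over the 18 group means with candidates of 10 CPM or more on average. Promoter and exon sequences are those of RefSeq (GRCm38.p6) and of Gencode M21, and served only for motifs, lengths and shared words.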

Additional observations from a re-analysis of the deposited data

Results flagged for a closer look

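In Ccr2-/- mice the log2 LPS change differed between sdCAMs and MG in 5 members by a direct test of the difference (edgeR interaction term, adjusted over all genes tested), each with the higher value in sdCAMs. The difference was 2.19 for Hif1a, 1.89 for Pfkfb3, 1.79 for Pfkl and 1.42 for Pkm, whose levels rose in sdCAMs. For Hk3 it was 1.55, with levels that did not pass in sdCAMs and fell in MG. In the same libraries the summed level of the immediate early genes was 2952 to 3403 CPM in sdCAMs and 1708 to 1878 CPM in MG after LPS, and its part in these differences was not tested.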

How the results depend on the processing

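Of 316 counts of passing members recomputed under alternatives in 23 comparisons, 280 were within 1.5 times the main count, and of 804 alternative values of the 64 passing member results, 708 passed with the same sign, 96 kept the sign without passing and 0 changed sign. Library-total scaling was chosen after seeing the data. For LPS in WT sdCAMs (main count 1), the count was 4 with the IEG_correction mark as a covariate, 2 in marked libraries only, 2 under library totals, where Hk2 (-2.75) and Hk3 (-2.32) passed as lower and the rise of Pfkfb3 did not, and 0 to 1 with 1 library left out. In reporter MG (0) it was 2 with DESeq2, 2 without the filter and 0 to 1 with 1 library left out. In tdT+ (5) it was 3 with columns exchanged and 3 to 4 with 1 library left out, and in tdT- (5) it was 3 with columns exchanged and 5 to 7 with 1 library left out. BLZ945 against CTL in WT MG (0) gave 1 without the filter. Between cell types, untreated WT (2) gave 1 without the filter, with the mouse as a block or under library totals and 1 to 4 with 1 library left out, untreated Ccr2-/- (5) gave 3 with the log2 limit, reporter PBS (3) gave 0 to 3 with 1 library left out, WT with LPS (3) gave 9 under library totals, and Ccr2-/- with LPS (4) gave 2 with the log2 limit, 7 without the filter and 8 with the mouse as a block. The WT difference of LPS changes (0) gave 2 under library totals. For tdT+ against tdT- after LPS (2) the count was 0 with columns exchanged, also with the block, and 8 under library totals. Signs turned for LPS in WT sdCAMs under library totals (Pgk1 -0.23, Pkm -0.14, Ldha -0.09), in tdT- for Hif1a (-0.16, library totals) and Pkm (0.17, exchanged), between WT cell types after LPS for Hk3 (-1.48, library totals) and Pgk1 (0.16, without MG mouse 1, with a range of -0.68 to 0.16 when 1 library was left out), and for tdT+ against tdT- after LPS with columns exchanged, without and with the block, for Hif1a (-0.05, -0.13), Hk2 (0.37, 0.18), Hk3 (-0.5, -0.59) and Pgk1 (-0.14, -0.31), and for Hk3 without tdT+ mouse 1 (-0.03) or tdT- mouse 1 (-0.1), with a range of -0.1 to 0.44 when 1 library was left out. None of these members passed in the main comparison. The calls that the block changed are given in the report, and it changed no other call of a member. The cause was not tested in these cases.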
